A study of Rattus norvegicus with 19 samples.

Results

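The supraoptic nucleus (SON) was compared with the paraventricular nucleus (PVN) inside one strain, the spontaneously hypertensive rat (SHR). The 9 arrays labelled as SHR were chosen from the 19 arrays of the series by their titles, 4 of the SON and 5 of the PVN. The other 10 arrays, 5 of each nucleus, came from the normotensive Wistar Kyoto strain (WKY) and served only to ask which differences between the nuclei were also measured there. All rats were labelled as 12 weeks old and untreated, and the methods describe them as male and inbred, with pooled nuclei, read here as a pool of nuclei on each array, so that the spread between arrays is a spread between pools. Nuclei were cut from hypothalamic slices by hand under a microscope. RNA went through 1 round of linear amplification and onto Affymetrix whole-genome rat arrays, whose features are called probe sets.

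Both nuclei hold the magnocellular neurones, large cells that make vasopressin or oxytocin and send them down their axons to the posterior pituitary. The PVN also holds parvocellular neurones, which drive the anterior pituitary and project to the autonomic centres of the brainstem and spinal cord, and it lies against the third ventricle, whose wall is lined by ciliated ependymal cells. The SON lies at the base of the brain beside the optic tract, next to the pial membrane and its glia.

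Levels are given as the log2 of the deposited signal after every array was scaled to a common median. Signals below the 10th percentile of all signals were set to that value, a floor of 1.91 on the log2 scale, under which no order is read. Where arrays of a group lay at the floor, the size of a fold depends on where the floor was set. A difference is SON minus PVN in log2 units, so that 1 unit is 2-fold, and was tested with limma over all 30310 probe sets that left the floor on at least 1 of the 9 arrays. Array pairs correlated between 0.915 and 0.974, none was identical to another, and between 8.51% and 10.6% of probe sets lay at the floor on each array. A probe set was called when its adjusted p was under 0.05 and the difference was at least 2-fold. By that rule 715 probe sets were higher in the SON of SHR (2.36% of those tested) and 661 were lower (2.18%). These 1376 calls carried a single gene symbol in 1006 cases and stood for 918 genes. On 1255 of them the 4 SON and the 5 PVN arrays did not overlap, where 7.05% of all probe sets tested had every SON array above every PVN array and 8.21% had every SON array below. Differences of at least 8-fold were measured on 50 of the probe sets higher in the SON and 58 of those lower. Levels are of RNA from whole tissue, in which fewer cells of a type and less RNA per cell cannot be told apart.

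Genes were read in lists by cell type or function, with 1 probe set, the brightest, for each gene. Of the 286 list genes with several tested probe sets 78 had another one whose test result differed, and none had one that passed in the opposite direction. The background for these lists is the 14024 genes tested, of which 8.21% were higher in the SON at an adjusted p under 0.05, 8.88% were lower, and whose median difference was -0.01. With the 2-fold limit these shares were 2.95% and 2.73%.

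**Figure D1:**
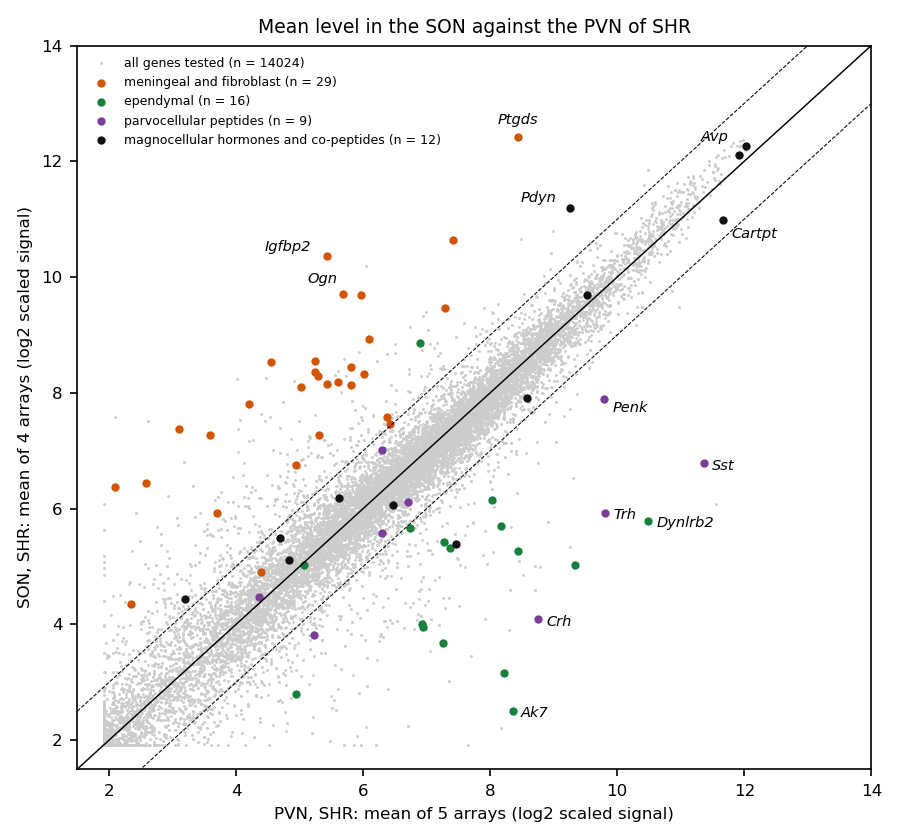
Each point is a gene, with its mean log2 scaled signal over the 5 PVN arrays on the x axis and over the 4 SON arrays on the y axis; the solid line marks equal levels and the dashed lines a 2-fold difference. Avp lies near the line of equality, most ependymal genes and the peptides Crh, Trh and Sst lie below it, and nearly the whole meningeal and fibroblast list lies above it.

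The transcripts of the magnocellular hormones were nearly level in the SON and PVN of SHR, whereas the opioid precursor that vasopressin neurones also make was not. Avp, which encodes vasopressin, measured 12.45, 12.13, 12.16 and 12.33 in SON arrays 1 to 4 and 12.13, 12.17, 11.76, 12.20 and 11.93 in PVN arrays 1 to 5. The arrays of the 2 nuclei overlapped. The difference of 0.24 did not pass the test (95% confidence interval -0.10 to 0.57, adjusted p = 0.374). Oxt, which encodes oxytocin, measured 12.23, 12.00, 12.02 and 12.18 in the SON and 11.95, 11.98, 11.61, 12.18 and 11.82 in the PVN. Its difference was 0.20, again with overlap (adjusted p = 0.453). Both transcripts lay at the top of the scale of this array. The brightest probe set on an array measured between 11.90 and 12.59, at most 14 of 31042 probe sets were brighter than Avp on any array and at most 27 were brighter than Oxt. How far the scale compressed differences at that brightness was not tested, and under quantile normalization the Avp and Oxt differences turned to -0.14 and -0.16, which also missed the threshold.

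Pdyn, the precursor of the dynorphins, measured 11.33, 10.95, 11.29 and 11.20 in the SON and 9.79, 9.27, 9.14, 9.02 and 9.09 in the PVN. Every SON array lay above every PVN array. The SON was 3.82-fold higher (difference 1.93, SE 0.16, adjusted p = 1.39e-05), and a second probe set of Pdyn gave 1.99. The CRH-related peptide Ucn, at 0.81 (adjusted p = 0.0246), and Nmb, the precursor of neuromedin B, at 0.57 (adjusted p = 0.0146), were also higher in the SON. Nmb missed the threshold without SON array 1, and Ucn missed it when PVN array 2 or 3 or SON array 3 or 4 was left out.

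Other co-expressed peptides went the other way. Adcyap1, the precursor of the peptide PACAP, was 4.18-fold lower in the SON (adjusted p = 4.33e-06). Cartpt, the precursor of the CART peptides, was lower by 0.68 on the log2 scale (a difference of -0.68, adjusted p = 0.00782), and Cck, the cholecystokinin precursor, had a difference of -0.66 (adjusted p = 0.00324). On each of these 3 genes the arrays of the 2 nuclei did not overlap. Galanin (Gal) had a difference of 0.17 with overlapping arrays (adjusted p = 0.649). In all, 3 of the 12 genes of this list were higher in the SON, 3 were lower and 6 did not pass the test, with a list median of 0.22.

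Of the 9 tested peptides of parvocellular neurones 5 were lower in the SON of SHR, 1 was higher and 3 did not pass the test. Crh, whose peptide drives the release of ACTH from the pituitary, measured 3.87, 4.22, 4.01 and 4.24 in the SON and 8.84, 8.63, 8.80, 8.83 and 8.63 in the PVN. The 2 ranges lay far apart, and the SON was 25.3-fold lower (difference -4.66, SE 0.11, adjusted p = 2.95e-09). Sst, the precursor of somatostatin, which holds back growth hormone, measured 6.84, 7.22, 6.64 and 6.43 in the SON and 11.39, 11.37, 11.27, 11.32 and 11.46 in the PVN. It was 23.9-fold lower in the SON (difference -4.58, SE 0.14, adjusted p = 8.71e-09). Its 5 PVN arrays lay close together and well above the SON arrays. Trh, the precursor of thyrotropin-releasing hormone, measured 5.58, 5.67, 6.37 and 6.11 in the SON and 9.85, 9.59, 9.72, 9.79 and 10.10 in the PVN. That is a 14.7-fold lower level in the SON (difference -3.88, SE 0.16, adjusted p = 1e-07).

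Penk, the enkephalin precursor, and Ghrh, which encodes growth hormone-releasing hormone, were the other 2 that were lower in the SON. Penk was 3.74-fold lower (difference -1.90, adjusted p = 0.000124) and Ghrh had a difference of -1.41. Npff, the precursor of neuropeptide FF, was the 1 gene of the list that was higher, with a difference of 0.73. Nts, Tac1 and Vip, which encode neurotensin, the substance P precursor and vasoactive intestinal peptide, had differences of -0.59, -0.72 and 0.10 and did not pass the test.

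Several peptides that belong to cell groups outside both nuclei were also far lower in the SON. Pmch, the precursor of melanin-concentrating hormone, made by neurones of the lateral hypothalamus and zona incerta, measured 5.74, 6.11, 6.04 and 6.42 in the SON and 12.07, 11.65, 11.45, 11.57 and 11.06 in the PVN. It was 44.8-fold lower in the SON (difference -5.49, SE 0.19, adjusted p = 1.6e-08). Hcrt, the orexin precursor of the lateral hypothalamus, measured 4.76, 4.78, 4.94 and 3.88 in the SON and 9.74, 9.20, 8.94, 7.86 and 7.81 in the PVN. The PVN arrays were widely spread, and all lay above the SON (difference -4.12, SE 0.39, adjusted p = 4.09e-05). Npvf, the precursor of the RFamide-related peptides of the dorsomedial hypothalamus, had the same wide spread in the PVN, from 5.82 to 8.03, against 4.09 to 4.54 in the SON (difference -2.44, SE 0.38, adjusted p = 0.00164). For both Hcrt and Npvf the highest of the 5 values was that of PVN array 1. Grp, which encodes gastrin-releasing peptide, was 4.86-fold lower in the SON.

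Prok2, the prokineticin that serves as an output signal of the suprachiasmatic nucleus, went against this direction. It measured 4.95, 3.58, 4.78 and 4.65 in the SON, and lay at the floor on 4 of the 5 PVN arrays, with 2.66 on the other one. The difference was 2.43 (SE 0.32, adjusted p = 0.000483). Gnrh1, the precursor of gonadotropin-releasing hormone, had a difference of 0.86 and passed the test. Of the 12 tested peptides of neighbouring hypothalamus, 3 were higher in the SON, 5 were lower and 4 did not pass, and the list median was -0.67. Nppc, which encodes C-type natriuretic peptide, was among the 5 at -1.55, but its ranges overlapped and it missed the threshold in 6 of the 9 fits that left out 1 array. The part of neighbouring tissue in the differences of Crh, Sst, Trh and Penk was not tested.

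**Figure D2:**
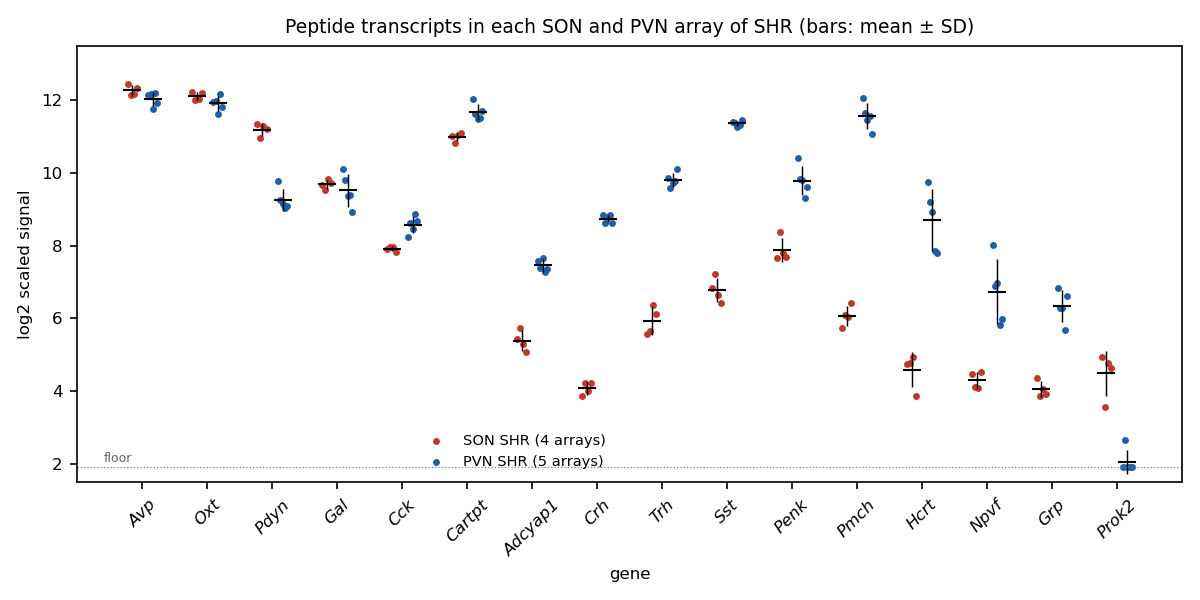
Log2 scaled signal (y axis) of 16 peptide transcripts (x axis) in each of the 4 SON and 5 PVN arrays of SHR, with the mean and the SD of each group as bars; the dotted line is the floor. Avp, Oxt and Gal overlap between the nuclei, Pdyn and Prok2 are higher in the SON, and Crh, Trh, Sst, Pmch and Hcrt are lower by about 4 units or more.

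Transcription factors that build these neurones were mostly level. Sim1, needed for the magnocellular and parvocellular lineages to form, had a difference of 0.35 (95% confidence interval 0.05 to 0.66, adjusted p = 0.133), and its partner Arnt2 had 0.05 (adjusted p = 0.846). Otp lay at or near the floor in both nuclei, and Pou3f2 was at the floor on all 9 arrays and was not tested. Of the 10 tested genes of this list, which also holds the RNA-binding protein Caprin2, 2 passed, Sim2 and Caprin2. Sim2, a relative of Sim1, was 6.21-fold lower in the SON, where 3 of its 4 arrays were at the floor (adjusted p = 0.000118).

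Caprin2, an RNA-binding protein that binds the vasopressin transcript, measured 10.52, 10.70, 10.74 and 10.66 in the SON and 8.49, 8.88, 8.59, 8.21 and 8.22 in the PVN. The SON arrays lay close together and all were above the PVN. The SON was 4.52-fold higher (difference 2.18, SE 0.14, adjusted p = 1.75e-06).

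Among 43 homeobox and regional transcription factors 9 were lower in the SON and 2 were higher. Six6, a factor of the ventral hypothalamus and suprachiasmatic nucleus, was 7.75-fold lower (difference -2.95, SE 0.37, adjusted p = 0.000374). The forebrain factors Lhx5, Dlx1, Isl1, Nkx2-2, Onecut2 and Lhx1 had differences between -2.13 and -1.28, and Nr5a2 had -1.59. Dimmer probe sets of Isl1, Onecut2 and Nr5a2 gave between -0.66 and 0.33 and did not pass. Emx2, a factor of the dorsal telencephalon, was higher in the SON by 1.44 (adjusted p = 0.00477), from 3.25 to 4.20 there against 1.91 to 2.69 in the PVN. With the floor raised to the 25th percentile the Emx2 difference shrank to 0.08.

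Transcripts of motile cilia were among the largest differences toward the PVN. Ependymal cells carry bundles of beating cilia, whose axoneme is built from dynein arms, tektins and radial spokes under the control of the factor Foxj1. Of the 16 tested genes of the ependymal list, 14 were lower in the SON of SHR, all by more than 2-fold, and the list median was -2.70. Ak7, an adenylate kinase of the axoneme, measured 1.91, 1.91, 3.13 and 3.05 in the SON and 8.48, 8.22, 8.35, 8.33 and 8.38 in the PVN. It was at the floor on 2 of the 4 SON arrays, while the PVN arrays lay close together. The SON was 57.7-fold lower (difference -5.85, SE 0.26, adjusted p = 1.49e-07). Dynlrb2, a dynein light chain, measured 5.64, 5.62, 5.75 and 6.14 in the SON and 10.68, 10.52, 10.36, 10.32 and 10.56 in the PVN. It was 26.0-fold lower in the SON (adjusted p = 2.95e-09). Dnah1, an inner-arm dynein heavy chain, was 33.3-fold lower and Dnah7, another, had a difference of -3.57. Foxj1 itself measured 6.15 in the SON and 8.02 in the PVN on average, a difference of -1.87 (adjusted p = 2.18e-06).

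Tektins 1, 2 and 4 (Tekt1, Tekt2 and Tekt4), filaments of the axonemal microtubules, had differences of -2.48, -2.99 and -2.92. The 2 genes of the list that were not lower were Mia (-0.05, adjusted p = 0.912) and Rarres2, the precursor of chemerin, which was 3.90-fold higher in the SON. Rarres2 is also made by cells other than ependyma. Outside the list, Mlf1 was at the floor on 3 of the 4 SON arrays, so that its 62.1-fold lower level there is limited by the floor. Cfap161, a protein of the cilium, was 20.3-fold lower, and Spaca9 had a difference of -4.24. Cimap1b was at the floor on all 4 SON arrays and between 7.54 and 7.71 on the PVN arrays. The size of its 53.1-fold lower level in the SON depends on the floor, and its difference ran from -5.76 to -3.62 over the settings tried. C3h20orf96 was at the floor on all 4 SON arrays as well. Its 19.5-fold lower level depends on the floor too, with differences from -4.37 to -2.33. Tmem212 had 2 probe sets, with differences of -5.42 and -4.31.

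The promoters of the ciliary genes are shown because their members moved together. RFX factors, which act with Foxj1 on ciliary genes, bind the X-box, an imperfect palindrome. Windows of 250 bases before and 50 bases after the start were taken from RefSeq (GRCr8) for 14 of the 16 ependymal genes and searched on both strands. An X-box was found in 3 of the 14 (21.4%), against 1.47% of 27457 promoters of the same length. Its half-site, spelled GTTGCC and also counted inside an X-box, was found in 6 of 14 (42.9%), against 12.2% of all promoters. A match is a description of letters and not a bound site. The 3 windows with an X-box are printed 5′ to 3′ on the strand of the gene, with the X-box in capitals. They are Tekt2 on the minus strand at chr5:143907675-143907974, Dnai1, a dynein intermediate chain, on the plus strand at chr5:61525829-61526128, and Spef2, a protein of the central pair, on the minus strand at chr2:60421801-60422100.
Tekt2: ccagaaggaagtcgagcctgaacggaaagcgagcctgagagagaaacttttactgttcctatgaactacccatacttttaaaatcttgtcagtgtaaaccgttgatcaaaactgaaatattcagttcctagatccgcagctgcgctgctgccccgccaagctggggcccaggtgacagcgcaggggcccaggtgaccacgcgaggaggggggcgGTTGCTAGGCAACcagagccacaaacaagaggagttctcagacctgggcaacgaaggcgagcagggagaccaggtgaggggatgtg
Dnai1: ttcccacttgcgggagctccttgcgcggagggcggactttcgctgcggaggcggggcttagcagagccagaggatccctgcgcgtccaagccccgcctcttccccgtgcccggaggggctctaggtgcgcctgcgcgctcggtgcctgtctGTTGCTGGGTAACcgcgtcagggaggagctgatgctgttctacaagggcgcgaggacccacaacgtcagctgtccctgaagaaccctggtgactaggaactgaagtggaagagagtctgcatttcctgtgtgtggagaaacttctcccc
Spef2: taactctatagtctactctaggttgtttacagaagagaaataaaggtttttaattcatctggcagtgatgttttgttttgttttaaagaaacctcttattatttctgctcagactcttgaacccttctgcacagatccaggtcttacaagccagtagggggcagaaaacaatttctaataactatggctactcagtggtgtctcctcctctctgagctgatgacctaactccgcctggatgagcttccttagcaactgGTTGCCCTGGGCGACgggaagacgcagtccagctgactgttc
Counted from the start, the X-box of Tekt2 ran from -36 to -24 and that of Dnai1 from -99 to -87, whereas that of Spef2 lay after the start. These 3 genes were lower in the SON by 2.99, 1.85 and 2.15 on the log2 scale (differences of -2.99, -1.85 and -2.15), while the 11 genes whose window held no X-box ran from -5.85 to 1.97.

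The opposite pole of the comparison was held by genes of the meninges and fibroblasts, which are collagens and small proteoglycans of the pial sheet, growth factor carriers and transporters of the arachnoid barrier. Of the 29 tested genes of the list 28 were higher in the SON of SHR, all by more than 2-fold, with a median difference of 3.00. Foxc1, a transcription factor of the developing meninges, was the exception at 0.52 (adjusted p = 0.386). Ptgds, which makes prostaglandin D2 and is abundant in leptomeninges, measured 12.59, 12.27, 12.59 and 12.23 in the SON and 8.68, 8.55, 8.58, 7.68 and 8.71 in the PVN. The SON was 15.8-fold higher (difference 3.98, SE 0.20, adjusted p = 4.26e-07). The arrays of the 2 nuclei were far apart, and in the SON Ptgds lay at the top of the array's scale. Igf2, a growth factor of the leptomeninges, measured 11.32, 10.46, 10.77 and 10.03 in the SON and 7.52, 7.57, 7.43, 7.23 and 7.30 in the PVN. It was 9.42-fold higher (difference 3.23, SE 0.21, adjusted p = 2.2e-06), while 3 further probe sets of Igf2 lay near the floor and differed by at most 0.11.

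Igfbp2, which carries the insulin-like growth factors, was 30.6-fold higher in the SON. The small proteoglycans Lum and Ogn were 15.9-fold and 16.4-fold higher, and Dcn had a difference of 3.00. The collagen genes Col1a2 and Col3a1 had differences of 3.12 and 3.31 on their brightest probe sets. The transporters Slc6a13, Slc47a1 and Slc22a6 had differences of 4.26, 4.29 and 3.86, with 3 of the 5 PVN arrays at the floor for Slc47a1 and 2 for Slc6a13. Outside the list, Slc13a4, a sulfate transporter, and Coch were 18.7-fold and 17.6-fold higher. Ctsk, a collagen-degrading protease, lay at the floor on 4 of the 5 PVN arrays, which limits its 18.0-fold difference. Aebp1 was 13.8-fold higher on one probe set but gave 0.31 on a dimmer one. The summed signal of the 29 genes ran from 11480 to 22910 on the SON arrays and from 1499 to 1836 on the PVN arrays. SON array 1 had the highest sum of the 4, and without it 28 of the 29 genes were still higher, with a median of 2.80.

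Contractile genes of vessel walls were also higher in the SON. Tagln, an actin-binding protein of smooth muscle, measured 8.63, 7.15, 8.12 and 6.41 in the SON. It lay at the floor on 4 of the 5 PVN arrays and at 2.82 on PVN array 5, so that the 44.8-fold difference (5.49 on the log2 scale, SE 0.42, adjusted p = 8.29e-06) is limited by the floor. Tpm2, a tropomyosin, was 29.8-fold higher on one probe set, whereas a second one gave 0.48 and did not pass. Of the 13 mural genes 7 were higher and none was lower, with a median of 0.77. Myh11, the smooth muscle myosin, was 3.00-fold higher, and Cnn1 was 4.21-fold higher but missed the threshold without SON array 1 or SON array 3. Rgs5 and Kcnj8, which mark pericytes, had differences of 0.29 and 0.53 and did not pass. Abcc9, of the same list, was higher by 0.61 (adjusted p = 0.0434), while dimmer probe sets gave -0.10 and 0.35 and did not pass. Pdgfrb had 0.77 and did not pass (adjusted p = 0.0532), but a dimmer probe set gave 2.35 without overlap (adjusted p = 0.00375).

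The other cell type lists differed less between the nuclei. Of the 19 astrocyte genes 5 were higher in the SON and none was lower, with a median of 0.15 and 6 negative differences. Slc1a3, of that list, had -0.26 and did not pass, but a dimmer probe set was lower at -0.89 without overlap (adjusted p = 0.0043). Aldh1l1, a folate enzyme of astrocytes, was 5.28-fold higher (difference 2.40, SE 0.12, adjusted p = 4.64e-07), Gjb6 was 3.24-fold higher, Gfap was 2.57-fold higher and Fabp7 was 2.03-fold higher. Among 17 microglial and perivascular macrophage genes 5 were higher, led by the perivascular markers Mrc1 at 1.69 and Fcgr2b at 1.53. The endothelial list had 3 higher and 1 lower of 16, with Vwf at 1.83. The oligodendrocyte list had 4 higher of 18, with Aspa at 1.04, a median of 0.21 and 7 negative differences, against 2 higher and 2 lower in WKY. In SHR Mbp (0.45, adjusted p = 0.0482) and Mobp (0.80, adjusted p = 0.0395) passed narrowly, while dimmer probe sets of both, from 0.007 to 0.35, did not. In the general neuronal list 6 of 23 were lower and none was higher, with Rbfox3 at -1.16 and Gap43 at -1.10. The list median was only -0.08 with 9 positive differences, and in WKY 5 genes were higher and 7 lower. In SHR the list means of the SON arrays, from 8.92 to 9.04, overlapped those of the PVN arrays, from 8.94 to 9.37. None of the 14 genes of cerebral cortex and striatum passed the test in either direction. Of the 11 thalamic genes 4 were lower and 1 was higher, and Tnnt1 among them was 21.0-fold lower in the SON. Of the 9 choroid plexus genes Folr1 was lower, at -1.58, and Aqp1, an aquaporin, was higher, at 0.55. A second, dimmer probe set of Aqp1 gave a larger difference of 3.76 (adjusted p = 6.43e-05), and Ttr had 0.68 and did not pass.

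**Figure D3:**
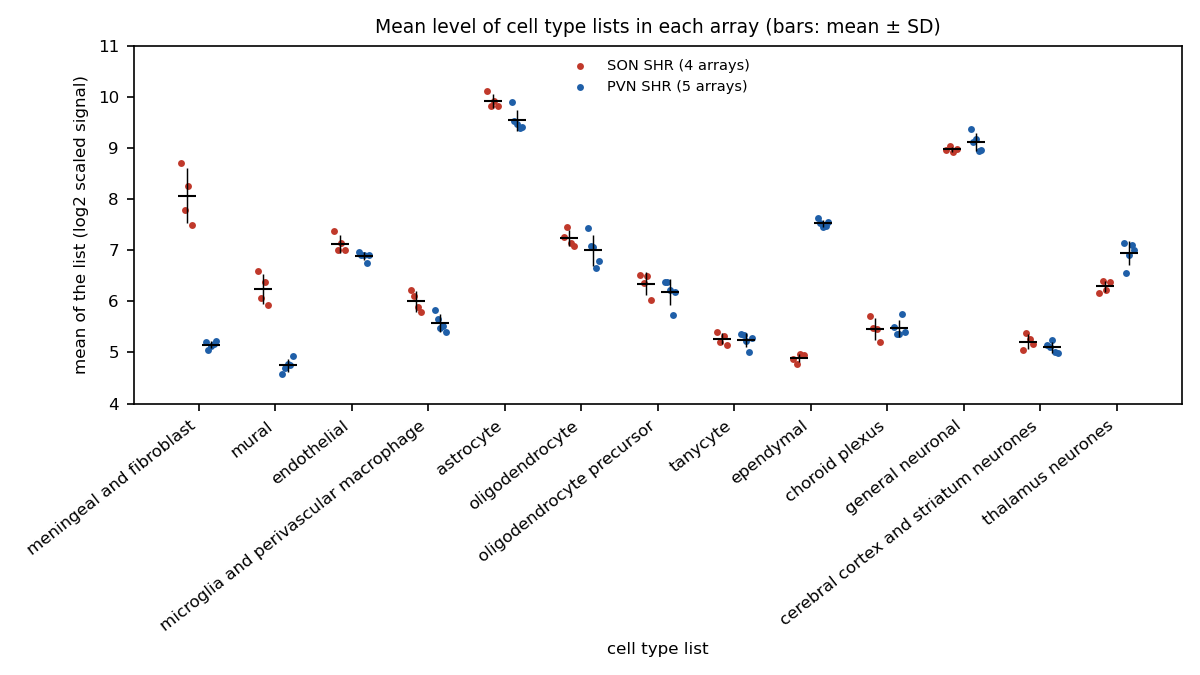
Mean log2 scaled signal over the tested genes of each cell type list (y axis) for the 13 lists (x axis) in each SON and PVN array of SHR, with the mean and the SD of each group as bars. The meningeal, mural, ependymal, endothelial and thalamic lists separate the nuclei without overlap, and SON array 1 has the highest meningeal and mural means.

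Genes of 2 growth and retinoid lists included several that were higher in the SON. Of 14 insulin-like growth factor genes 6 were higher in the SON and 2, the insulin receptor substrates Irs1 (-0.91) and Irs2 (-0.80), were lower. Igf1 was 3.13-fold higher and Igfbp6 was 2.55-fold higher, with 6.93-fold on a dimmer probe set. Of 17 genes of retinoic acid metabolism and signalling 7 were higher and 1 was lower. The synthesizing enzymes Aldh1a2 and Aldh1a3 had differences of 2.58 and 1.87, the clearing enzyme Cyp26b1 had 2.95, the binding protein Crabp2 had 3.08 and the carrier Rbp4 had 2.75. Igf2, Igfbp2, Crabp2 and Aldh1a2 are also members of the meningeal list, whose summed signal was higher on every SON array than on any PVN array. The part of meningeal tissue in the retinoid and growth factor differences was not tested.

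Transmitter genes differed in both directions. All 7 tested genes of the inhibitory phenotype had negative differences and 5 passed. Slc32a1, the vesicular transporter of GABA, was 2.52-fold lower in the SON (adjusted p = 0.00949), and Gad1, which makes GABA, was 2.18-fold lower with overlapping arrays (adjusted p = 0.022). Gad1 missed the threshold without PVN array 3 and without SON arrays 1, 3 or 4. Pvalb, the calcium-binding protein parvalbumin, had a difference of -1.64. Of the 4 tested genes of the excitatory phenotype 1 was lower, the vesicular glutamate transporter Slc17a6 at -0.37 (adjusted p = 0.0365), and none was higher. Of 15 genes for amines and acetylcholine 4 were higher and 4 were lower. Hdc, which makes histamine in the tuberomammillary nucleus, was 5.37-fold lower in the SON.

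The cholinergic genes of that list were higher in the SON. Chat, which makes acetylcholine, measured 6.45, 6.07, 6.06 and 6.30 in the SON and 3.91, 4.09, 2.84, 1.91 and 1.91 in the PVN. The arrays did not overlap, and the SON was 9.75-fold higher (difference 3.28, SE 0.46, adjusted p = 0.000809). Slc5a7, the choline transporter, was 7.52-fold higher and Slc18a3, the vesicular acetylcholine transporter, was 4.31-fold higher. The last overlapped between the nuclei and its difference shrank to 0.82 with the higher floor. Th, the first enzyme of catecholamine synthesis, had a difference of 0.84, while Ddc, which acts after it, had -1.16. A dimmer probe set of Ddc gave -0.37 with overlapping arrays and did not pass (adjusted p = 0.481).

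Receptors for peptides and amines leaned toward the PVN. Of 58 tested genes 18 were lower in the SON and 3 were higher, with a median of -0.31. Npy1r and Npy5r, receptors for neuropeptide Y, were 6.75-fold and 3.95-fold lower. Avpr1a, a vasopressin receptor, was at the floor on all 4 SON arrays and measured 4.94, 4.67, 4.54, 4.16 and 4.30 in the PVN. The size of its 6.10-fold lower level in the SON (adjusted p = 2.4e-05) depends on where the floor was set. With the floor raised to the 25th percentile the Avpr1a difference shrank to -0.65. Sstr1, a somatostatin receptor, and Crhbp, which binds CRH, had differences of -1.88 and -1.58, while 2 dimmer probe sets of Sstr1 gave 0.01 and 0.02. Chrna4, a nicotinic receptor subunit, had -1.97 with overlapping arrays and missed the threshold without SON array 1 or SON array 3.

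Aplnr, the receptor for apelin, which acts on vasopressin release, measured 7.67, 7.35, 7.60 and 7.41 in the SON and 4.73, 4.11, 4.25, 4.29 and 4.90 in the PVN. Every SON array lay above the PVN, and the SON was 8.30-fold higher (difference 3.05, SE 0.18, adjusted p = 1.3e-06). A dimmer probe set of Aplnr gave 0.76 and did not pass. Tacr3, the neurokinin B receptor, was 2.77-fold higher in the SON (adjusted p = 0.00936). The GABA and glycine receptor list had 4 lower and 1 higher of 18, led by Gabbr2 at -1.40, and the glutamate receptor list 3 lower of 23, led by Grik1 at -1.06.

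Blood pressure and fluid balance genes, which are of interest in a hypertensive strain, differed singly and not as a group. Of 21 genes of the renin-angiotensin and blood pressure list 2 were higher in the SON and 3 were lower, with a median of 0.03. Agtr1a, an angiotensin II receptor, measured 4.51, 4.20, 4.55 and 4.55 in the SON and 6.54, 5.94, 6.73, 6.14 and 6.59 in the PVN. It was 3.83-fold lower in the SON (difference -1.94, SE 0.19, adjusted p = 6.13e-05), and a second probe set gave -2.08. Enpep, the aminopeptidase that turns angiotensin II into angiotensin III, measured 7.36, 6.36, 7.02 and 6.50 in the SON and 2.70, 3.09, 4.27, 2.88 and 3.00 in the PVN. It was 12.3-fold higher in the SON (difference 3.62, SE 0.34, adjusted p = 3.86e-05), on one of 2 probe sets, the other giving 0.31. Enpep is also found in vessel walls, and 7 of the 13 mural genes were higher in the SON; its part in the Enpep difference was not tested. Nppa, the atrial natriuretic peptide precursor, was 3.44-fold lower (adjusted p = 0.000144). Npr1, its receptor, was higher at 1.81 with overlapping arrays (adjusted p = 0.0305) and missed the threshold in 6 of the 9 fits that left out 1 array.

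Of 21 genes known to respond to osmotic stimuli 7 were higher in the SON and 3 were lower. Slc12a1, a sodium-potassium-chloride cotransporter, was 3.71-fold higher (difference 1.89, SE 0.22, adjusted p = 0.000199), the opsin Opn3 was 2.25-fold higher and the aquaporin Aqp9 was 2.13-fold higher. Scn7a, the sodium channel that senses sodium in glia of the ventricular organs, was 2.31-fold lower. The leptin receptor Lepr, of the metabolic hormone receptor list, had 1.16 and missed the threshold without SON array 1, 3 or 4. A dimmer probe set of Lepr gave 2.21 without overlap (adjusted p = 0.00879). Other dimmer ones gave 0.98 and 1.84, which passed with overlapping arrays, and 0.47 and 0.13, which did not pass. In WKY the probe set with 2.21 in SHR was the only one of Lepr that passed, at 2.51, while the brightest had 0.555 (adjusted p = 0.488).

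Genes of the endoplasmic reticulum and the respiratory chain that passed the test on their brightest probe sets were higher in the SON by under 2-fold, and most did not pass. Of 41 genes of protein folding, translocation and stress in the endoplasmic reticulum 11 were higher in the SON and none was lower, with a median of 0.29. None of the 11 reached 2-fold, and Ssr4 (0.91), Sec11c (0.82) and Sec61b (0.80) led them. The number that passed ran from 8 to 23 when 1 array was left out. On a dimmer probe set Ssr1 was 2.01-fold higher without overlap (adjusted p = 4.07e-05), and Canx and Ssr3 passed on dimmer ones too, although their brightest did not. A dimmer probe set of Sec63 gave -1.09 and did not pass. Of 48 respiratory chain genes 6 were higher and none was lower, with a median of 0.21, and that number ran from 2 to 20. The granule protein Scg2 (secretogranin II) was 2.78-fold lower in the SON (adjusted p = 3.76e-06), against 4 higher and 5 lower of the 22 genes of prohormone processing and granules. Of 43 guidance and adhesion genes 12 were lower and 4 were higher, with Ephb1 at -1.55, Pcdh8 at -1.43, Efna5 at -1.25 and Efnb3 at -1.20. Potassium channels had 5 higher and 5 lower of 48, none by 2-fold on its brightest probe set. A dimmer probe set of Kcnma1 was 2.75-fold higher in the SON without overlap (adjusted p = 0.00931), while its brightest gave -0.04.

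**Figure D4:**
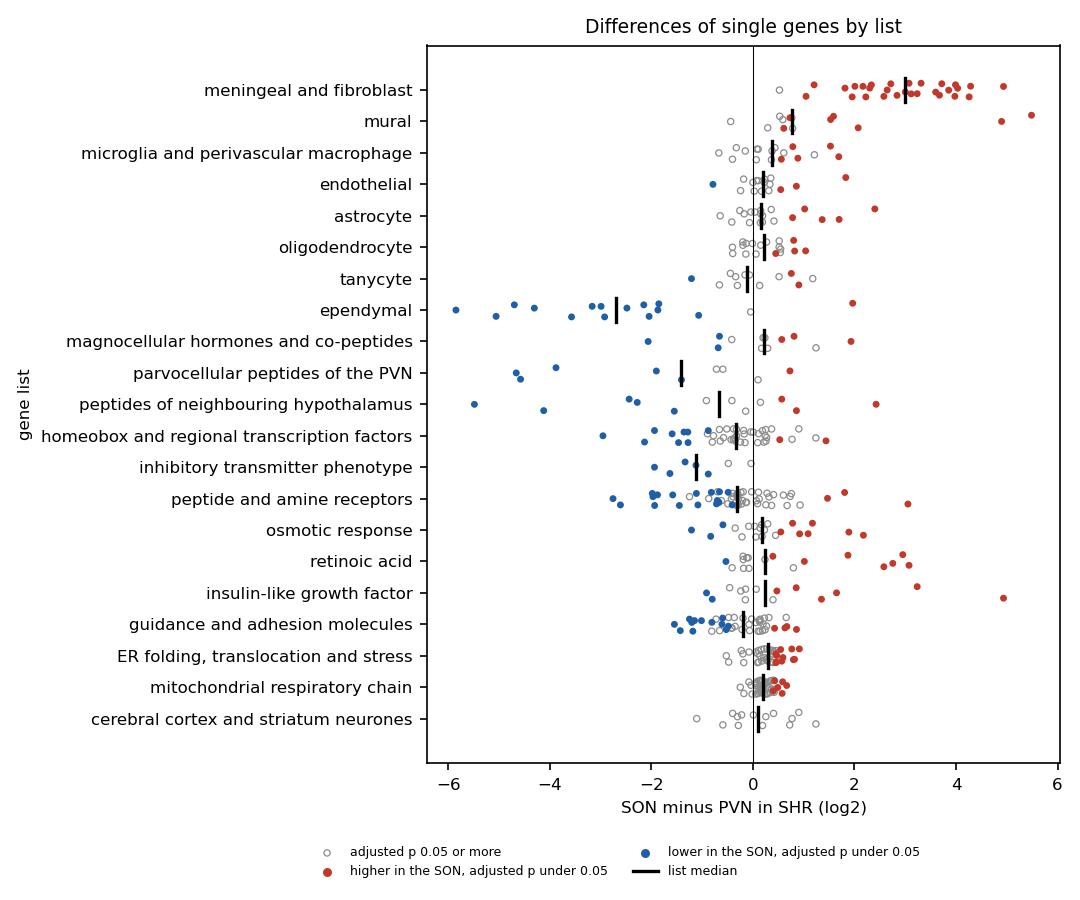
Difference between SON and PVN in SHR on the log2 scale (x axis) for every tested gene of 21 lists (y axis); filled points passed at an adjusted p under 0.05, open points did not, and black bars are list medians. The ependymal and meningeal lists have the most distant medians, at -2.70 and 3.00.

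Most of what separated the nuclei in SHR was measured in WKY too. In WKY, compared on its own 10 arrays, 1223 of 30521 probe sets were called (4.01%, against 4.54% in SHR). The strains shared 764 calls in the same direction, which is 55.5% of the SHR calls and 62.5% of the WKY calls, and 3 calls in opposite directions. Of the 1374 SHR calls that were tested in WKY, 1308 (95.2%) had the same sign there. Of the 612 SHR calls not called in WKY in the same direction, 215 passed the adjusted p in WKY with the same sign and a difference under 2-fold. For Crh the WKY difference was -4.06, for Sst -4.80, for Trh -3.60, for Pmch -5.87, for Pdyn 1.82 and for Caprin2 2.16. The ependymal list had 13 of 16 genes lower in the SON of WKY, where 10.2% of all genes tested were lower, and a median of -2.52. The meningeal list had 27 of 29 genes higher there, against 11.3% of all genes, and a median of 2.35.

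The difference between the strains was tested itself, as the difference in SHR minus that in WKY. It passed on 14 of 30701 probe sets (0.0456%), 3 more positive in SHR and 11 more negative, with 1983 probe sets at an unadjusted p under 0.05. The number depended on single arrays, and was 6 without PVN WKY array 1, PVN SHR array 3 or SON SHR array 1. In a fit that paired same-numbered arrays of a strain, which the labels do not call pairs, 1 passed, Trim30d. Over the 19 fits that left out 1 array, 6 of the 14 passed every time, among them Ucn, Vwa3a, Trim14, Trim30d and Cidea, whereas Nmb and Gpr83 passed in 2, Cbr3 in 2, Bdh2 in 3 and Bcl2l15 in 4. Among the 14 were 5 of the 612 SHR calls not called in WKY in the same direction. Ucn measured 5.14, 5.39, 5.58 and 5.89 in the SON of SHR and 4.68, 4.55, 4.40, 4.82 and 4.99 in its PVN. In WKY it measured 7.34, 7.26, 7.15, 7.58 and 7.53 in the SON and 4.72, 4.85, 5.02, 4.43 and 4.38 in the PVN. The PVN levels of the strains overlapped and the SON levels did not. The SON exceeded the PVN by 0.81 in SHR and by 2.69 in WKY (difference between strains -1.88, SE 0.24, adjusted p = 0.00253). Nmb had the same shape, with 0.57 in SHR and 1.55 in WKY (difference between strains -0.98, adjusted p = 0.0494).

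Vwa3a was lower in the SON of SHR by 5.76-fold, from a PVN mean of 6.25 to a SON mean of 3.72. In WKY both nuclei were at the level of the SON of SHR, with means of 4.07 and 3.88 (difference between strains -2.34, adjusted p = 0.00253). Bcl2l15 differed by -2.45 in SHR and by -0.88 in WKY, and Gpr83, an orphan receptor, by -0.95 in SHR and by 0.00 in WKY. Trim14 and Bdh2 had opposite signs in the strains, Trim14 with -1.06 in SHR and 1.44 in WKY and Bdh2 with 0.85 and -0.62. The Trim14 levels in SHR lay near the floor, and its difference there missed the threshold in 5 of the 9 fits that left out 1 array. The strain difference of Trim14 passed in 6 of 10 alternative settings that kept all arrays, and among them it shrank to as little as -0.05. Trim30d, Cbr3 and Cidea differed between the nuclei of WKY by 2.38, 2.34 and 1.68, whereas in SHR they had 0.39, 0.09 and 0.45 and did not pass. Cbr3 averaged 2.00 in the SON of SHR and 1.91, the floor, in its PVN, so that its 0.09 carries little information. The strain difference of Cbr3 passed in 4 of those 10 settings and shrank to as little as -0.60.

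**Figure D5:**
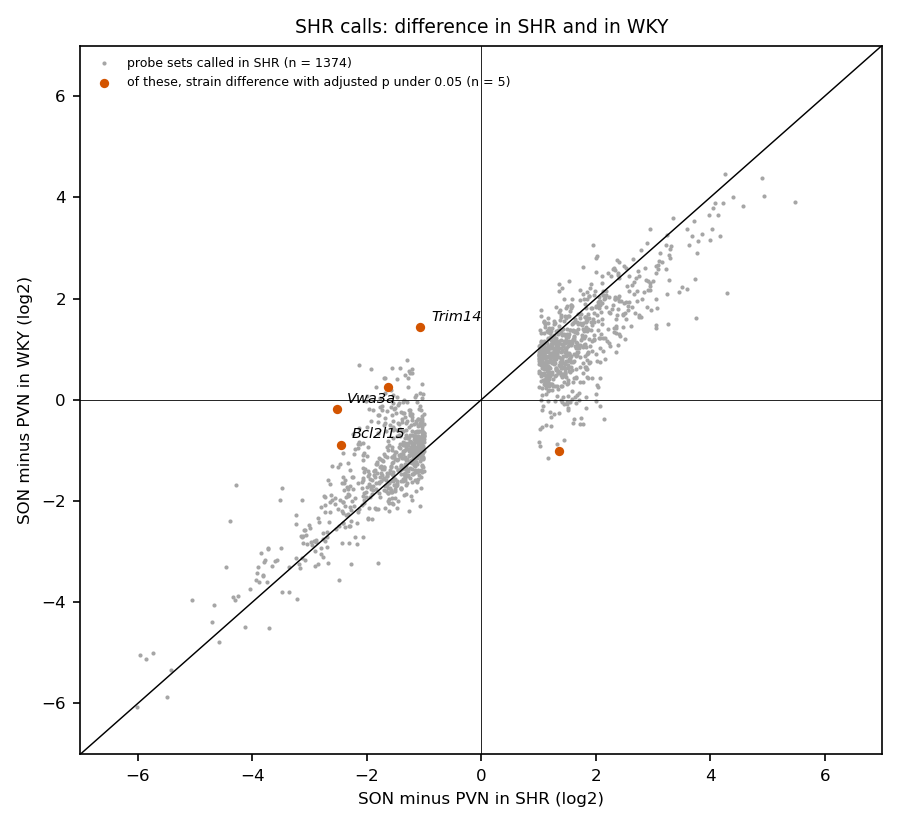
The difference between SON and PVN in SHR (x axis) and in WKY (y axis), both on the log2 scale, for the 1374 probe sets called in SHR and tested in WKY; the line marks equal differences. Points were chosen by their SHR values, so that a smaller spread in WKY is built in; the 5 marked points are those with a strain difference that passed at an adjusted p under 0.05.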

How the data were processed

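RNA of hand-dissected nuclei was measured on 19 Affymetrix arrays. The authors deposited intensity values on a linear scale, which MAS 5.0 had computed for each array, and their later GeneSpring normalisation and present calls were not used here. Each array was scaled to a common median (signal 41.3), anything below the 10th percentile of all signals (3.77) was raised to it, and log2 was taken. Of 31099 probe sets 57 controls were left out, and 732 that were at the floor on all 9 SHR arrays were not fitted. A single gene symbol was held by 20826 probe sets, several by 436 and none by 9780. Names were read from GEO's platform table and brought up to date (GRCr8) by Entrez number. A list gene stands for its brightest probe set over the 9 SHR arrays.

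The SHR comparison used limma 3.58.1 in R 4.3.3 (lmFit, eBayes with an intensity trend, two-sided, Benjamini-Hochberg over all probe sets) on 4 SON and 5 PVN arrays. WKY was fitted on its own 10 arrays, and the difference between the strains on all 19. Array number limits the precision. The fit was first tested on simulated data. Members, 40 gene lists (851 of 963 names on the array) and tests were chosen with earlier results of these data known. Genes were named by rule: the 15 highest and 15 lowest called genes without overlap, up to 4 called genes per list and direction, 16 chosen peptides and factors, and the 10 largest differences between the strains. Further list members and second probe sets were named after their values were seen. Promoters were read from a RefSeq table (GRCr8). Alternatives were quantile normalization, unscaled values, log2(value + 16), a floor at the 25th percentile, 2 filters on dim probe sets, other variance moderation, all 4 groups in one fit, array weights, a replicate block, the methods' Welch test and leaving out each array. Python 3.11.15 with pandas 2.3.3 made the tables.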

Additional observations from a re-analysis of the deposited data

Results flagged for a closer look

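Single arrays lay far from the rest of their group, by Dixon's 95% limit, in 21 of 224 groups of 4 or 5 values of the named genes, where chance gives about 1 in 20. Many of these values sat at or beside the floor of 1.91. In the PVN of SHR, array 4 was far from the others for Igfbp2 (3.25, the nearest array at 5.68), for 1 of 4 probe sets of Ogn (2.75, nearest 4.66), Ptgds (7.68, nearest 8.55), Slc22a6 (3.17, nearest 2.51), Igf1 (5.99, nearest 5.20), Chrna4 (2.31, nearest 4.26) and Ctsk (1.94, nearest 1.91). PVN array 5 stood apart for Tagln (2.82, nearest 1.91) and Slc13a4 (2.11, nearest 4.04). PVN array 2 stood apart for Slc47a1 (2.71, nearest 2.00) and Prok2 (2.66, nearest 1.91). PVN array 3 stood apart for Npr1 (3.82, nearest 3.04) and Enpep (4.27, nearest 3.09), and PVN array 1 for Scg2 (11.20, nearest 10.94).

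In the SON of SHR, array 1 stood apart for Mlf1 (3.10, nearest 1.91) and Sim2 (2.86, nearest 1.91). Array 2 stood apart for Agtr1a (4.20, nearest 4.51). Array 4 stood apart for Hcrt (3.88, nearest 4.76), Chrna4 (2.65, nearest 2.00), Otp (3.47, nearest 1.91) and Cbr3 (2.26, nearest 1.91). Mlf1, Sim2, Hcrt and Agtr1a kept their direction and stayed past the threshold in every fit that left out 1 array.

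The difference between the nuclei itself differed between the strains, by limma's interaction term at an adjusted p under 0.05, for 10 named genes. It was more negative in SHR for Trim14 (-2.50), Vwa3a (-2.34), Cbr3 (-2.26), Trim30d (-1.99), Ucn (-1.88), Bcl2l15 (-1.57), Cidea (-1.23), Nmb (-0.98) and Gpr83 (-0.96), and more positive for Bdh2 (1.47).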

How the results depend on the processing

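For the named genes 2436 values under an alternative kept their direction and their side of the threshold, 73 missed the threshold, 8 newly passed it and 4 reversed, namely Avp (-0.14) and Oxt (-0.16) under quantile normalization, Otp (0.026 without PVN array 4, and from -0.59 to 0.026 over the fits that left out 1 array) and Arnt2 (-0.020 without SON array 1, and from -0.020 to 0.14), none of which passed the test. The 715 probe sets called higher in the SON became 358 with log2(value + 16), 315 and 475 with filters on the overall and the group mean, and 407 with the methods' Welch test, and ran from 551 (without SON array 1) to 720 over the fits that left out 1 array. The 661 called lower became 331, 341 with the filter on the overall mean, and 415 with Welch's test, and ran from 589 to 699. The 764 calls shared with WKY became 448, 403 and 483 under the same 3 settings and ran from 688 to 776. The filters test fewer probe sets and the offset shrinks dim differences by construction. The 14 differences between the strains became 37 with quantile normalization, 34 with array weights and 1, Trim30d, with the replicate block (the adjusted p of Ucn was then 0.261), and ran from 6 (without PVN WKY array 1, PVN SHR array 3 or SON SHR array 1) to 17. The cause was not tested.

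Replicate numbers recur across groups, but same-numbered SON and PVN arrays of SHR deviated together only weakly (correlations 0.112, 0.0297, 0.0237 and 0.0651), although each SON array matched its own number best. They were not taken as pairs. With the replicate block 595 probe sets were called higher and 598 lower. With the floor at the 25th percentile 19 of the 107 called probe sets of named genes shrank by over 1.5 times on the log2 scale and none changed sign. Signals near the floor, as for Mlf1, Ctsk, Avpr1a, Tagln, Sim2, Chrna4, Nppc, Trim14 and Cbr3, bound differences only loosely. Avp, Oxt and Ptgds lay at the top of the scale.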
